A study of Mus musculus with 36 samples.

Results

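The aryl hydrocarbon receptor (AHR) battery is a set of genes around a ligand-activated transcription factor that senses small planar chemicals, among them diet- and microbe-derived indoles. It was examined here in cultured mouse intestinal organoids through 7 genes, Ahr, Arnt, Ahrr, Cyp1a1, Cyp1b1, Tiparp and Nqo1, of 52636 genes listed. The genes were chosen by symbol and matched to 1 Ensembl identifier each. Cyp1a1 had been picked for its rise with anti-Ptk7 in Wnt5a, so in that contrast the values of all 7 genes are described without a test. Levels are given in CPM, counts scaled to the TMM-adjusted library total. A gene under a mean of 0.5 CPM over all libraries was treated as not detected. All 7 members were above that limit and all 7 passed the expression filter of the test.

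In cells without ligand, AHR sits in the cytoplasm with HSP90 and p23 (Ptges3). Ligand binding moves it to the nucleus, where it pairs with ARNT and binds xenobiotic response elements in the DNA, whose core is GCGTG. The genes it switches on include enzymes that oxidise the ligand, CYP1A1 and CYP1B1, the quinone reductase NQO1, and a pair of proteins that restrain the receptor, AHRR, which competes for ARNT, and TIPARP, an ADP-ribosyltransferase that marks AHR for loss. In the intestine, CYP1A1 of the epithelium is known to clear AHR ligands that arrive from the lumen. Nqo1 is also a target of NRF2, the regulator of the antioxidant response.

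The organoids were grown from jejunal crypts of C57BL/6 mice, and 36 libraries were made, 6 in each of 6 groups, after 2 days of culture. The groups were complete media (IntestiCult, a commercial organoid medium) with IgG, medium conditioned by quiescent embryonic fibroblasts (QCM) with IgG, medium conditioned by senescent embryonic fibroblasts (SCM) with IgG, SCM with anti-Ptk7, complete medium with the noncanonical Wnt ligand Wnt5a and IgG, and Wnt5a with anti-Ptk7. Anti-Ptk7 is an antibody against the Wnt co-receptor Ptk7, and IgG was its control, so every culture received an antibody. The conditioned media were mixed with complete medium, and the labels name no altered allele. The age and sex of the donor mice of these libraries, and whether X-ray or doxorubicin had made the fibroblasts senescent, were not given in the sources used here. The submitters' description names 6 animals of origin numbered as the replicates are, and replicate numbers were therefore read as shared mice. No libraries of complete media with anti-Ptk7 were analysed here.

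Library totals ranged from 9581589 to 21029769 counts. The libraries had the profile of epithelium: the summed level of 8 epithelial markers ranged from 9785 to 33542 CPM, whereas 9 fibroblast markers summed to 0.146 to 7.36 CPM, 7 immune markers to 0.838 to 4.89 CPM and 4 endothelial markers to 0 to 2.51 CPM. The fibroblast genes Col3a1, Dcn and Thy1 were at 0 counts in all 36 libraries. Judged by the root mean square difference in log2 CPM from the mean of the other 5 libraries of a group, SCM + IgG replicate 1 (0.826), SCM + anti-Ptk7 replicate 4 (0.771) and, among the Wnt5a libraries, Wnt5a + IgG replicate 1 (0.728) lay farthest out, in a range of 0.440 to 0.826 over all libraries. In RNA from whole cultures, a change in the number of cells of a type and a change in RNA per cell cannot be told apart.

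Promoter windows of 250 bases before the RefSeq start (GRCm38.p6) were found for 6 of the 7 genes, all but Ahr. The windows of the 2 members with the largest fitted changes, Cyp1a1 and Cyp1b1, and of the feedback repressor Ahrr are shown 5′ to 3′ on the strand of the gene. Capitals mark GCGTG or its reverse complement CACGC.
Cyp1a1 (chr9:57697363-57697612, + strand): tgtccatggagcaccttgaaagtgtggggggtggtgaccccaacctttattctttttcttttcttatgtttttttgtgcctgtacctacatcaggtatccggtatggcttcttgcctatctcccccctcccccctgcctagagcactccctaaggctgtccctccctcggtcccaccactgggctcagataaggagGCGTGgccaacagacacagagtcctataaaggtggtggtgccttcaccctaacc
Cyp1b1 (chr17:79715062-79715311, - strand): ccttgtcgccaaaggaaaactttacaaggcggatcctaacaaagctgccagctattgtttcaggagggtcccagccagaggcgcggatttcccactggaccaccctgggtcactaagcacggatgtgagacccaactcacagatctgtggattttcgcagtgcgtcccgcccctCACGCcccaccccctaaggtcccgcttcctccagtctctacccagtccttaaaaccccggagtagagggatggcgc
Ahrr (chr13:74292332-74292581, - strand): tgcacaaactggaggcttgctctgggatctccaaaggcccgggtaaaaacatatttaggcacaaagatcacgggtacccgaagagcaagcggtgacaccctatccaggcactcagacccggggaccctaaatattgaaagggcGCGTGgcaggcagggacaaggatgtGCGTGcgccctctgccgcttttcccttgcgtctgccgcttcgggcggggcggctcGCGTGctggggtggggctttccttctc

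GCGTG was searched on both strands, and overlap with other motifs was not scored. Cyp1a1 held 1 match, whose first base lay at -54 from the start, and Cyp1b1 held 1 on the opposite strand at -76. Ahrr held 3 matches, at -107, -82 and -27. Arnt held 1 at -29, Tiparp 1 on the opposite strand at -170, and Nqo1 held none in this window. Of 32851 RefSeq windows of the same length, 28.2% held at least 1 match and 8.63% held 2 or more, so a single match is common. These are matches of letters in a short window and say nothing of binding.

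Per kilobase of coding length, which allows levels of different genes to be set side by side, Nqo1 was the most abundant member at 172 CPM per kilobase over all 36 libraries. Cyp1a1 followed at 67.3, then Tiparp at 30.7, Cyp1b1 at 27.5, Arnt at 27.4 and Ahr at 17.1. The place of Cyp1b1 in this order differed between groups: its mean was 5.01 CPM per kilobase in complete media and 7.80 in QCM, below Ahr (12.2 and 12.6), and 42.4 in Wnt5a and 70.2 in Wnt5a with anti-Ptk7, above Tiparp (34.8 and 37.2). Ahrr was scarce at 0.877 CPM per kilobase. In 3 of 36 libraries it had no count at all.

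**Figure D1:**
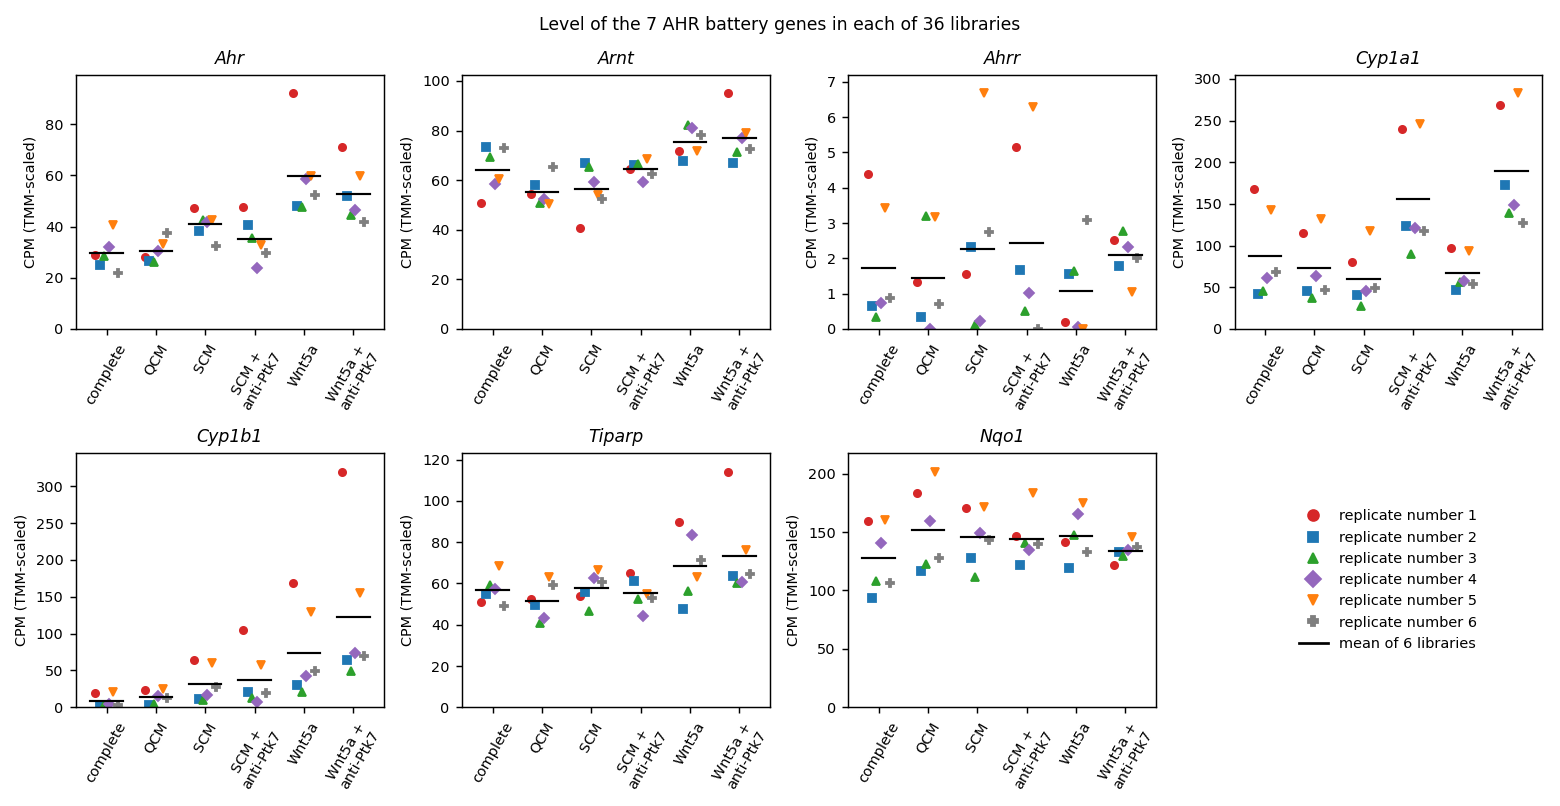
Level of each of the 7 members (CPM, linear axes that start at 0) in the 36 libraries, by group, with a symbol for each replicate number and a bar at the mean of 6 libraries. Cyp1a1 was highest in both anti-Ptk7 groups (means of 156 and 190.0 CPM), Cyp1b1 and Ahr were higher in both Wnt5a groups than in complete media, and replicate numbers 1 and 5 lay on top for Cyp1a1 and Cyp1b1 in all 6 groups.

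The receptor gene Ahr (chromosome 12, 35497974 to 35535038, minus strand) rose when Wnt5a was added to complete medium. Its level in complete media ranged from 21.9 to 40.6 CPM around a median of 28.8 CPM, and with Wnt5a it ranged from 47.8 to 92.1 CPM around a median of 55.4 CPM. The groups did not overlap, and the Wnt5a library was the higher for all 6 replicate numbers, by 1.47 to 3.18 times. The fitted log2 fold change was 1.01 ± 0.16 (SE, n = 6 libraries per group; edgeR quasi-likelihood test, adjusted p = 3.23e-05). Without Wnt5a + IgG replicate 1, the highest of the 36, it was 0.85 (adjusted p = 0.000273). The long noncoding RNA gene Gm48236 lies opposite part of the coding sequence of Ahr, and reads of the pair cannot be told apart without strand.

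In SCM the level of Ahr lay between those of complete media and Wnt5a, at 32.3 to 47.4 CPM with a median of 42.1 CPM. It was higher than in complete media for 6 of 6 replicate numbers, but the groups overlapped and the difference was not called (log2 fold change 0.47 ± 0.16, adjusted p = 0.0572). Fitting the replicate number as a block gave an adjusted p of 0.0172, with the fold still under the limit of 1.5. In QCM, Ahr ranged from 26.2 to 37.4 CPM, about as in complete media (log2 fold change 0.04 ± 0.16, adjusted p = 0.963). SCM against QCM was not called for Ahr, with or without the block. SCM was the higher for 5 of 6 replicate numbers, at 0.865 to 1.69 times. In edgeR fits that left out 1 library, its log2 fold change was 0.39 to 0.52 (adjusted p of 0.0924 to 0.353). Other alternatives gave 0.35 to 0.56, under the fold limit. Ordered by mean, the groups ran from complete media (29.6 CPM) through QCM (30.3), SCM with anti-Ptk7 (35.01), SCM (40.8) and Wnt5a with anti-Ptk7 (52.6) to Wnt5a (59.7). Of these neighbours, SCM and Wnt5a with anti-Ptk7 alone differed by more than the larger of their SDs.

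Its partner Arnt (chromosome 3, 95434388 to 95497240, plus strand) was not called in any comparison tested. Group means ran from 55.3 CPM in QCM to 76.98 CPM in Wnt5a with anti-Ptk7, and the 36 libraries from 40.5 to 95.0 CPM. The fitted log2 fold change with Wnt5a was 0.23 ± 0.10 (adjusted p = 0.101), and that of SCM against complete media was -0.19 ± 0.10 (adjusted p = 0.254). Of neighbours in the order of means, SCM with anti-Ptk7 (64.6 CPM) and Wnt5a (75.5 CPM) alone differed by more than the larger of their SDs (5.91 CPM), and their ranges overlapped.

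The repressor gene Ahrr (chromosome 13, 74211118 to 74292331, minus strand) ranged from 0 to 6.67 CPM, or 0 to 75 counts in a library. The spread between libraries of a group was larger than the mean in 3 of 6 groups, and the SE of its fitted log2 fold changes was 0.87 to 0.91. Differences of the size seen for Ahr were therefore not detectable for this gene. Its log2 fold change was -0.64 with Wnt5a (adjusted p = 0.682), 0.37 with SCM (adjusted p = 0.842) and 0.13 with anti-Ptk7 in SCM (adjusted p = 0.962).

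Tiparp (chromosome 3, 65528410 to 65555518, plus strand), the other brake on the receptor, had means of 51.5 CPM in QCM to 73.3 CPM in Wnt5a with anti-Ptk7. The log2 fold change was 0.28 ± 0.15 with Wnt5a (adjusted p = 0.188) and 0.03 ± 0.15 with SCM (adjusted p = 0.931). The Wnt5a libraries ranged from 47.8 to 90.0 CPM and overlapped those of complete media at 49.2 to 68.3 CPM. No pair of neighbouring groups in the order of its means differed by more than the larger SD.

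Cyp1b1 (chromosome 17, 79701537 to 79715061, minus strand), a monooxygenase of polycyclic hydrocarbons and estrogens, had the largest range of the 7 genes, from 2.44 to 319.8 CPM. In complete media its lowest, median and highest levels were 2.44, 3.95 and 20.3 CPM, and with Wnt5a they were 21.3, 45.8 and 168.6 CPM. The groups did not overlap. Within a replicate number, the Wnt5a library was 6.38 to 20.3 times higher, with a median of 8.78 times. The fitted log2 fold change was 3.09 ± 0.71 (adjusted p = 0.00165), and 2.66 (adjusted p = 0.00825) without Wnt5a + IgG replicate 1.

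The median level of Cyp1b1 in both conditioned media lay between those of complete media and Wnt5a. In QCM its lowest, median and highest levels were 2.83, 13.6 and 24.3 CPM, and in SCM they were 10.3, 21.9 and 63.9 CPM. The SCM library was above that of complete media for 6 of 6 replicate numbers, by 2.96 to 11.2 times, yet the groups overlapped and the main test did not call the difference (log2 fold change 1.87 ± 0.69, adjusted p = 0.0737; 1.52, adjusted p = 0.216, without SCM + IgG replicate 1). In the model with the block the log2 fold change was 1.96 ± 0.28 and the adjusted p 2.03e-06, which is a call, and it was called in each of 6 blocked fits without 1 number. Against QCM, Cyp1b1 in SCM had a log2 fold change of 1.21 ± 0.66 (adjusted p = 0.358), and with the block 1.10 ± 0.26 (adjusted p = 0.0055, called), higher for 6 of 6 replicate numbers by 1.11 to 4.09 times. QCM against complete media gave 0.65 ± 0.70 (adjusted p = 0.779) and was not called with the block either (adjusted p = 0.0955). Within a replicate number the QCM library was 1.04 to 5.05 times that of complete media, with a median of 1.31 times. The largest ratios were those of numbers 4 and 6, at 3.05 and 5.05 times.

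Markers of the epithelium and of enterocytes were read beside the Ahr and Cyp1b1 results. With Wnt5a, 4 of 8 epithelial markers were called, all higher, beside 10.2% of all genes tested: Cdh1 and the keratin genes Krt8, Krt18 and Krt19. The others were not called. From complete media to Wnt5a, mean CPM went from 1880 to 2503 for Epcam, 625 to 842 for Vil1 and 1511 to 1589 for Cldn7. Cdx2 went the other way, from 237 to 206 CPM. Krt8 went from a mean of 731 to 1734 CPM (log2 fold change 1.246 ± 0.22, adjusted p = 0.000103). The call of Cdh1 was lost under voom with limma (0.52) and without Wnt5a + IgG replicate 1 (0.55, and 0.53 with the block), where the fold was under 1.5. The summed epithelial markers ranged from 9785 to 13010.5 CPM in complete media, from 16124 to 28990 CPM with Wnt5a and from 14064 to 21173 CPM with SCM. Krt19 was the largest part of these sums, with means of 3185, 7171 and 6161 CPM in that order. Of 8 enterocyte markers, 3 were called higher with Wnt5a, namely Alpi, from 54.4 to 110 CPM (1.017 ± 0.16, adjusted p = 2.56e-05), Fabp1 and Apoa4. The fold of Apoa4 dropped below 1.5 when library size alone was used, without complete media + IgG replicate 5 or 6 or Wnt5a + IgG replicate 3, 4 or 5, and in the blocked fits without number 4 or 5, and that of Fabp1 in the blocked fit without number 3. The other 5 were not called, with log2 fold changes of -0.46 for Treh, -0.28 for Fabp2, -0.17 for Sis, -0.04 for Apoa1 and 0.30 for Lct, and the median of the 8 was 0.13. With SCM, the 3 keratin genes were called higher among the epithelial markers. The remaining epithelial markers were not called. Their means with SCM were 2549 CPM for Epcam, 1596 for Cdh1 (1278 in complete media), 759 for Vil1, 1711 for Cldn7 and 204 for Cdx2. Of the enterocyte markers, 4 were called higher with SCM, Alpi, Fabp1, Apoa1 and Apoa4, beside 6.08% of all genes. The others were not called, with log2 fold changes of -0.54 for Sis (with the block -0.53, adjusted p = 0.00767, under the fold limit), -0.49 for Treh, -0.02 for Fabp2 and 0.22 for Lct. In QCM against complete media, where neither Ahr nor Cyp1b1 was called, 0 epithelial and 3 enterocyte markers were called, beside 0.374% of all genes. These were Alpi, from 54.4 to 98.4 CPM (0.86 ± 0.16, adjusted p = 0.00443), Fabp1 and Apoa4, all higher, and the block added Apoa1. Sis had a log2 fold change of -0.53 and was not called, and Fabp2, Lct and Treh were at 0.05, 0.10 and -0.0023. The Apoa4 call in QCM was lost without QCM + IgG replicate 2 or 3 or complete media + IgG replicate 1, 4, 5 or 6. The summed enterocyte markers ranged from 1277 to 2116 CPM in complete media, 1231 to 2217 CPM with Wnt5a and 2043 to 2607 CPM with SCM. The fibroblast markers summed to 0.146 to 5.68 CPM in complete media, 0.210 to 3.09 CPM with Wnt5a and 0.896 to 2.70 CPM with SCM. The part of these markers in the Ahr and Cyp1b1 results was not tested.

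Cyp1a1 (chromosome 9, 57687928 to 57703824, plus strand), a commonly used readout of AHR activity, was not called in SCM or QCM against complete media or in SCM against QCM, with or without the block. Its lowest, median and highest levels were 41.4, 64.3 and 167.9 CPM in complete media, 37.6, 55.2 and 131.9 CPM in QCM, and 28.01, 47.05 and 117.6 CPM in SCM. SCM lay below complete media for 6 of 6 replicate numbers, at 0.478 to 0.974 times, and the groups overlapped. The log2 fold change of SCM against complete media was -0.55 ± 0.36 (adjusted p = 0.378). With the block it was -0.51 ± 0.13 with an adjusted p of 0.00587, under the fold limit and so not called. In Wnt5a with IgG, the libraries on which the gene was picked, it ranged from 46.8 to 97.6 CPM around a median of 56.5 CPM, which is given as a description alone.

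Cyp1a1 rose with anti-Ptk7 in SCM, in libraries that had no part in picking it. With IgG its lowest, median and highest levels were 28.01, 47.05 and 117.6 CPM, and with anti-Ptk7 they were 89.7, 122.6 and 246.1 CPM. The highest IgG library, number 5, lay above the lowest anti-Ptk7 library, number 3, so the groups overlapped. Within each replicate number the anti-Ptk7 library was the higher, 6 of 6, by 2.99, 3.07, 3.20, 2.68, 2.09 and 2.41 times for numbers 1 to 6. The fitted log2 fold change was 1.39 ± 0.37 (adjusted p = 0.0323). With the block it was 1.43 ± 0.13 (adjusted p = 1.13e-08).

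The call without the block lay near the threshold. It was lost in 8 of 12 fits that left out a library, namely number 1, 2, 3, 4 or 6 of the IgG arm and number 1, 2 or 5 of the antibody arm, with log2 fold changes of 1.21 to 1.48 (1.48, adjusted p = 0.0521, without IgG number 1) and adjusted p of up to 0.0763, and when the 2 groups were fitted alone (adjusted p = 0.0696). On the single gene, an exact two-sided permutation test of the 12 libraries gave p = 0.00433 (the smallest possible is 0.00216) for a difference of 1.44 in mean log2 CPM, and exact sign flips over the 6 replicate numbers gave p = 0.0312, the smallest they can give. Both tests were added after the data were seen.

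The other 6 members were not called with anti-Ptk7 in SCM, and 1 of 7 was called in all, beside 1.23% of the 15497 genes tested (0.581% higher). The fit with the block also called 1 of 7, beside 2.57%. For Cyp1b1 the IgG libraries ranged from 10.3 to 63.9 CPM and the anti-Ptk7 libraries from 7.23 to 104.5 CPM. Replicate numbers 1, 2 and 3 were higher with the antibody and 4, 5 and 6 lower (log2 fold change 0.24 ± 0.64, adjusted p = 0.893). The log2 fold changes were -0.22 ± 0.16 for Ahr, 0.20 ± 0.10 for Arnt, -0.07 ± 0.15 for Tiparp and -0.01 ± 0.14 for Nqo1, with adjusted p from 0.321 to 0.978.

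Marker genes were read beside the Cyp1a1 result. Alpi, the alkaline phosphatase of enterocytes, fell with anti-Ptk7 in SCM (log2 fold change -0.59 ± 0.16, adjusted p = 0.0403), a fold at the limit of 1.5. It was 1 of 8 enterocyte markers called, beside 1.23% of all genes tested. That call was lost without replicate 1, 3, 4 or 5 of the IgG arm or 2, 3, 4 or 6 of the antibody arm. It was also lost under DESeq2, voom and other scalings, and with no filter or at least 10 counts required in every library. Fitting the 2 groups alone lost it too, as did the blocked fits without number 5 or 6. With the block, which called 2.57% of all genes, Treh, the trehalase of enterocytes, was also called, higher (log2 fold change 0.65, adjusted p = 0.0494; without the block 0.53, adjusted p = 0.450). The summed enterocyte markers ranged from 2043 to 2607 CPM with IgG and from 1664 to 2584 CPM with anti-Ptk7. The fibroblast markers summed to 0.896 to 2.70 CPM with IgG and 2.26 to 7.36 CPM with anti-Ptk7. Pdgfrb, at 0 in 1 IgG library, made up most of the sum in the antibody arm and had means of 1.10 and 4.10 CPM (adjusted p = 0.0927, and with the block 0.0498, called), whereas Col3a1, Dcn and Thy1 were at 0. The part of these genes in the Cyp1a1 result was not tested.

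In Wnt5a, the contrast on which Cyp1a1 was picked, its lowest, median and highest levels were 46.8, 56.5 and 97.6 CPM with IgG and 127.3, 160.8 and 282.5 CPM with anti-Ptk7, and the groups did not overlap. The ratio within a replicate number was 2.36 to 3.69, with a median of 2.68, and the fitted log2 fold change was 1.497. For the 6 numbers in SCM the median ratio was 2.83. Cyp1b1 ranged from 21.3 to 168.6 CPM with IgG and from 49.2 to 319.8 CPM with anti-Ptk7, higher for 6 of 6 numbers by 1.198 to 2.30 times, with a log2 fold change of 0.73. The log2 fold changes of the other members were -0.18 for Ahr, 0.03 for Arnt, 0.91 for Ahrr, 0.09 for Tiparp and -0.14 for Nqo1. Of all genes tested, 0.884% were called in this contrast, which chose the gene, and nothing is read from these values.

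**Figure D2:**
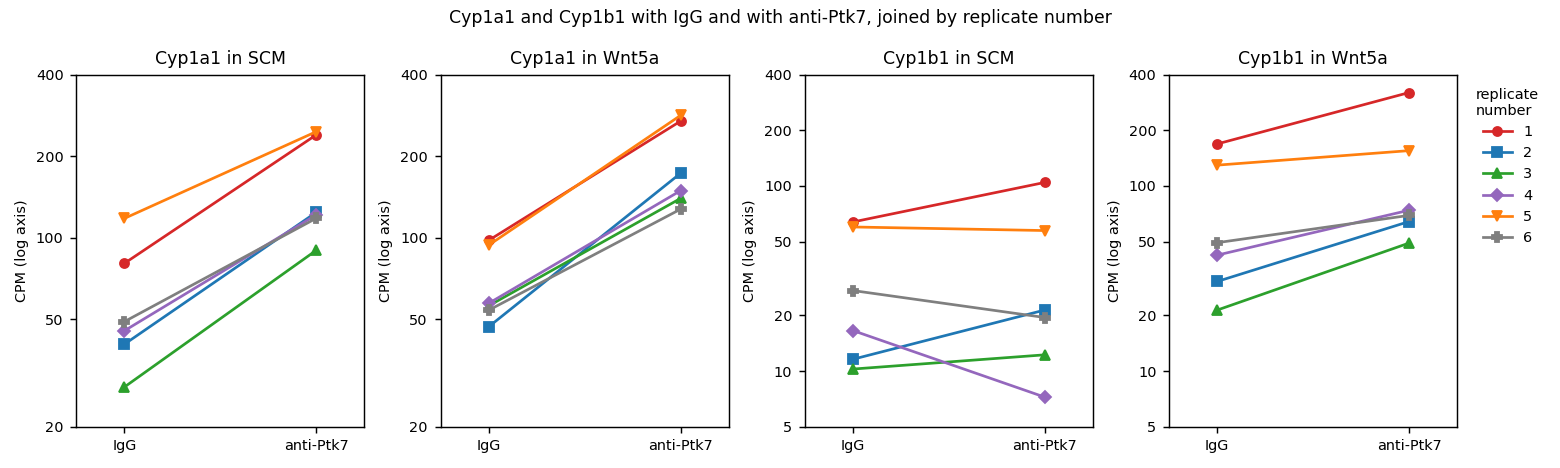
Cyp1a1 and Cyp1b1 (CPM, log axis) with IgG and with anti-Ptk7 in SCM and in Wnt5a, each line joining the 2 libraries of a replicate number. All 6 Cyp1a1 lines rise in SCM (2.09 to 3.20 times) and in Wnt5a (2.36 to 3.69 times, the contrast the gene was picked on), whereas in SCM the Cyp1b1 lines of numbers 4, 5 and 6 fall.

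Replicate numbers marked Cyp1a1 and Cyp1b1 more than the other members. Numbers 1 and 5 were the 2 highest libraries in 6 of 6 groups for both genes, in 4 groups for Nqo1, in 2 for Ahr and for Ahrr, and in 1 for Arnt and for Tiparp. For Cyp1a1 in complete media, numbers 1 and 5 stood at 167.9 and 142.6 CPM and the other 4 libraries at 41.4 to 67.9 CPM. For Cyp1b1 in Wnt5a they stood at 168.6 and 129.6 CPM and the others at 21.3 to 49.4 CPM. This spread sets the SE of 0.36 to 0.37 for Cyp1a1 and 0.64 to 0.71 for Cyp1b1, against 0.13 and 0.25 to 0.28 with the block.

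Nqo1 (chromosome 8, 107388225 to 107403206, minus strand), which reduces quinones, was not called in any comparison tested. Means ran from 128 CPM in complete media to 152 CPM in QCM, and the 36 libraries from 93.9 to 201.7 CPM. Its level was above that of complete media for 6 of 6 replicate numbers both in QCM (1.13 to 1.26 times) and in SCM (1.03 to 1.36 times), but the log2 fold changes of 0.25 ± 0.14 and 0.18 ± 0.14 were not called (adjusted p = 0.483 and 0.438), with or without the block. With Wnt5a it was 0.20 ± 0.14 (adjusted p = 0.339).

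Counted over the battery, Wnt5a against complete media called 2 of the 6 members tested, Ahr and Cyp1b1, both higher, beside 10.2% of all genes tested (8.29% higher). The block left both calls in place, beside 11% of all genes. The median log2 fold change of those 6 members was 0.25, and that of all genes was 0.01. SCM against complete media called 0 of 7 beside 6.08% of all genes. With the block it called 1, Cyp1b1, beside 7.31%. SCM against QCM called 0 of 7 beside 0.903%, and 1 with the block, again Cyp1b1, beside 3.2%. QCM against complete media called 0 of 7 beside 0.374%, also with the block (1.15%). At an unadjusted p under 0.05, edgeR without the block had 2 members in SCM against complete media (Ahr and Cyp1b1), 1 in SCM against QCM (Ahr) and 1 in QCM against complete media (Arnt, lower). DESeq2 called 1 member in SCM against complete media, Cyp1b1 (adjusted p = 0.0432), and 0 in the other 2, and voom with limma called 0 in all 3. The shares of all genes at the unadjusted threshold, under DESeq2 and under voom are not given here. Nothing is therefore read from these counts about the battery. The comparisons with complete media share the same 6 control libraries, and those of SCM share the 6 SCM libraries with IgG.

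**Figure D3:**
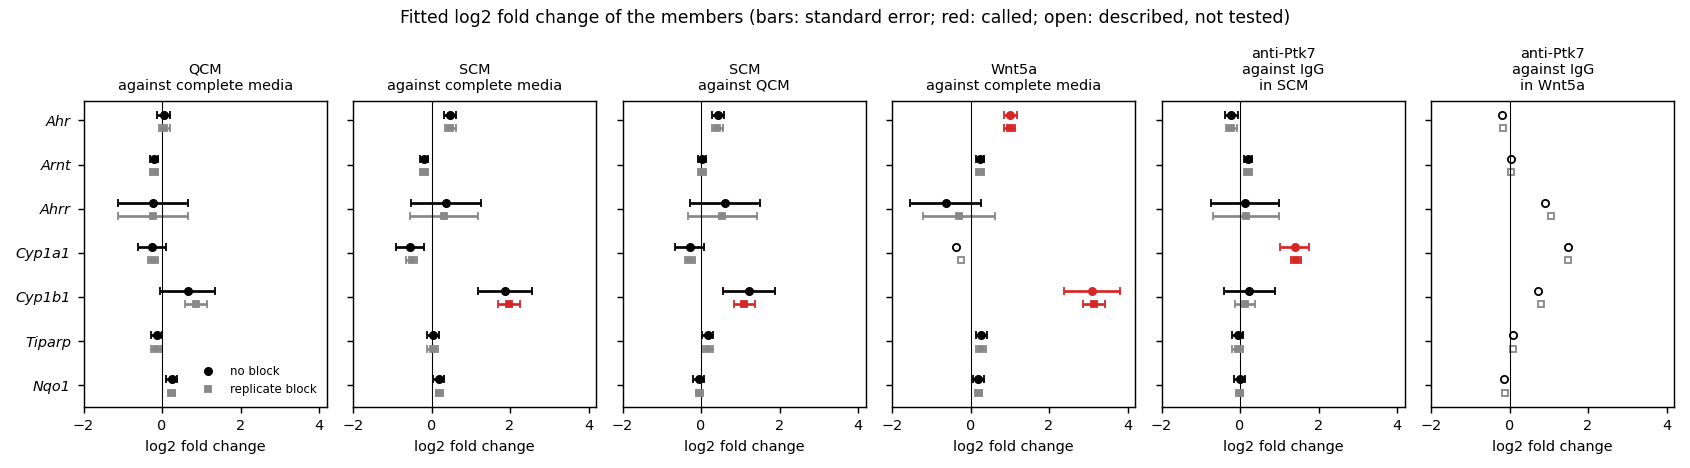
Fitted log2 fold change of each member in 6 comparisons, with SE bars, without (circles) and with (squares) the replicate number as a block. Red marks calls (fold over 1.5 with adjusted p under 0.05), and open symbols are described without a test because the contrast or its libraries were used to pick Cyp1a1. The block narrows the bars of Cyp1a1 and Cyp1b1 and adds the calls of Cyp1b1 in both SCM comparisons.

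Of 6 genes for the receptor's complex and its relatives, 2 were called with Wnt5a, both higher, beside 10.2% of all genes tested, and none in SCM, where the block called 1, Arnt2 (log2 fold change 0.64 ± 0.20, adjusted p = 0.0202; without the block 0.60 ± 0.23, adjusted p = 0.0870). Epas1, a hypoxia factor that also pairs with ARNT, went from a mean of 6.11 to 13.7 CPM (log2 fold change 1.16 ± 0.32, adjusted p = 0.00745). Without Wnt5a + IgG replicate 1 this call was lost (log2 fold change 0.80, adjusted p = 0.0633). Arnt2, the paralogue of Arnt, went from 17.7 to 32.1 CPM (0.86 ± 0.23, adjusted p = 0.00638). The chaperone genes Hsp90ab1 and Ptges3 had log2 fold changes of -0.02 and 0.04 with Wnt5a. The list's median was 0.20. With anti-Ptk7 in SCM none of the 6 was called, and the median was -0.11.

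Of 12 further genes known as AHR targets, 5 were not detected: Cyp1a2, Aldh3a1, Ugt1a6a, Ugt1a6b and Serpinb2. The Ugt1a6 genes share exons with the rest of their cluster, so their counts are uncertain, as are those of the near-identical pair Gsta1 and Gsta2. With Wnt5a, 1 of the 7 detected was called, beside 10.2% of all genes, and with SCM 1, beside 6.08%. Cyp2s1, another P450 of the epithelium, fell from 38.3 to 18.4 CPM (log2 fold change -1.06 ± 0.28, adjusted p = 0.00641), against the direction of Cyp1b1. With SCM, Slc7a5, an amino acid transporter, fell from 196.4 to 127.7 CPM (-0.62 ± 0.11, adjusted p = 0.000113). This fold dropped below 1.5 without complete media + IgG replicate 6 and in the blocked fits without number 3 or 6. None of the 7 was called with anti-Ptk7 in SCM or in QCM against complete media. The medians of the 7 were -0.16 with Wnt5a, 0.03 with SCM and 0.11 with anti-Ptk7 in SCM.

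NRF2 targets were read because Nqo1 answers to both regulators. Of 14, 2 rose in both SCM and Wnt5a, beside 6.08% and 10.2% of all genes called, Hmox1, which breaks down heme, and Me1, which makes NADPH. Hmox1 had means of 12.4 CPM in complete media, 23.6 CPM in SCM (log2 fold change 0.92 ± 0.27, adjusted p = 0.0221) and 28.3 CPM in Wnt5a (1.19 ± 0.27, adjusted p = 0.00159). In SCM its call was lost under voom with limma (log2 fold change 0.81, adjusted p = 0.0509) and without SCM + IgG replicate 1 or 5 or complete media + IgG replicate 2, 3 or 4 (log2 fold change 0.71 to 0.86, adjusted p of 0.0513 to 0.112). In QCM it was called with the block alone (0.60, adjusted p = 0.0161; without the block 0.56, adjusted p = 0.413). Me1 had means of 22.7, 38.9 and 45.7 CPM (0.78 ± 0.20, adjusted p = 0.00933, and 1.01 ± 0.20, adjusted p = 0.000418). Others had an adjusted p under 0.05 with a fold under the limit. In SCM these were Fth1 (log2 fold change 0.49), Gclm (0.34), Txnrd1 (-0.18) and Gsr (-0.33), and in Wnt5a Srxn1 (0.46), Fth1 (0.28), G6pdx (0.24), Gclm (0.23) and Gsr (-0.39). The medians of the 14 were 0.09 and 0.23. None was called with anti-Ptk7 in SCM.

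Of 9 genes for enzymes that make or use tryptophan-derived AHR ligands, 4 were not detected, Ido1, Ido2, Tdo2 and Kynu, the first 3 being the enzymes that open the tryptophan ring. The kynurenine aminotransferase genes Kyat3 and Kyat1 fell with SCM, 2 of the 5 tested beside 6.08% of all genes called, from 12.5 to 6.84 CPM (log2 fold change -0.86 ± 0.19, adjusted p = 0.00188) and from 33.7 to 22.4 CPM (-0.59 ± 0.16, adjusted p = 0.0138). Kyat1 lay at the fold limit, and its call was lost without SCM + IgG replicate 1, 4 or 5 or complete media + IgG replicate 3 or 6. It was also lost with at least 10 counts required in every library, when the 2 groups were fitted alone, and in the blocked fits without number 1 or 6. With Wnt5a neither was called without the block, where Kyat3 had a log2 fold change of -0.57 ± 0.19 (adjusted p = 0.0236), under the fold limit. With the block Kyat3 was called, lower (-0.59 ± 0.18, adjusted p = 0.0121). The amino acid oxidase gene Il4i1 was near the limit of detection at a mean of 0.656 CPM.

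**Figure D4:**
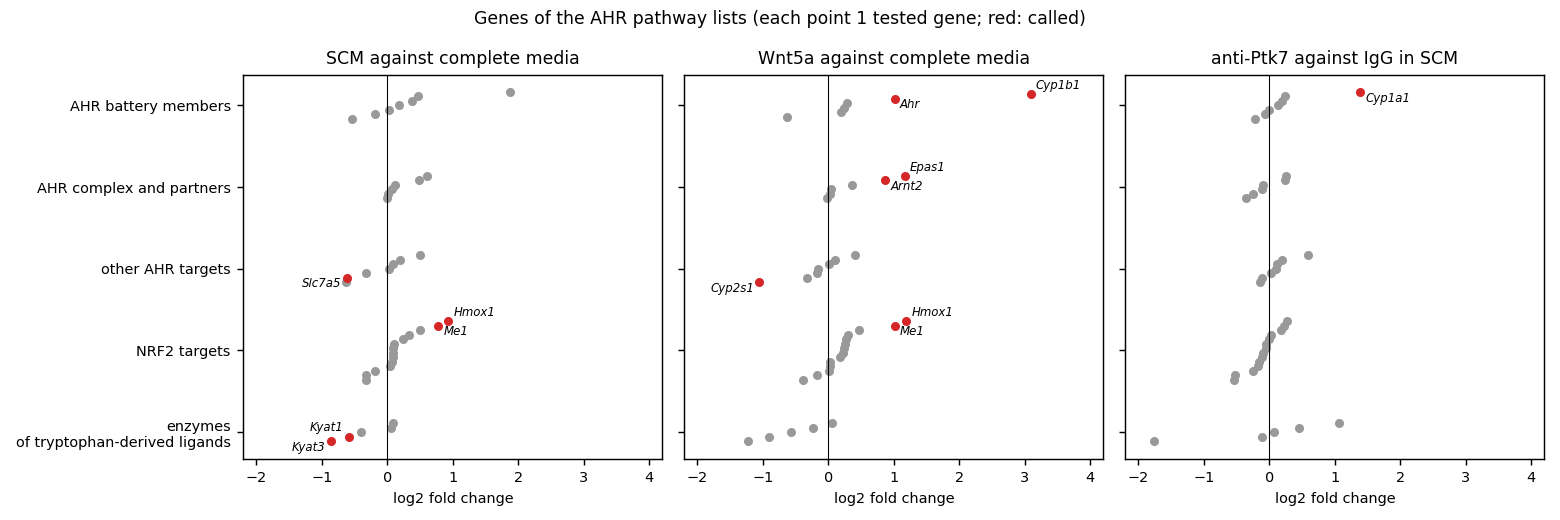
Fitted log2 fold changes of the tested genes of the battery and of 4 further lists in SCM and Wnt5a against complete media and with anti-Ptk7 in SCM, each point 1 gene and red points called. With anti-Ptk7 in SCM, Cyp1a1 at 1.39 is the red point, and Cyp1a1 is not shown in Wnt5a, where it was not tested.

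The genes whose level over the 36 libraries was most like that of Cyp1a1 were Cyp27a1 (a sterol hydroxylase, Pearson's r of log2 CPM 0.85), Ugdh (UDP-glucose dehydrogenase, 0.80), Eps8l3 (0.75), Nfkbia (0.73) and 4933431E20Rik (0.73). After the group means were removed, their correlations with Cyp1a1 were 0.70, 0.85, 0.85, 0.61 and 0.81. Among the members, Cyp1b1 was 55th most like Cyp1a1 at 0.65, followed by Tiparp (1233rd) and Nqo1 (1263rd), both at 0.43, Ahrr at 0.42, Ahr at 0.29 and Arnt at 0.16. After removal of the group means the correlations were 0.88 for Cyp1b1, 0.47 for Tiparp, 0.80 for Nqo1, 0.41 for Ahrr, 0.48 for Ahr and -0.36 for Arnt. The 36 libraries include the 12 Wnt5a libraries in which the rise of Cyp1a1 was used to pick it, and they share mice and groups, so these values describe these 36 libraries.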

How the data were processed

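RNA of 36 organoid cultures was measured by RNA-seq. RNA (2 ng) was amplified with a Smart-Seq V4 kit, which does not mark strand, and 150 pg of cDNA entered Nextera XT libraries read as 50-base single ends. The authors aligned reads with GSNAP (named in the submitters' processing notes) through HTSeqGenie 4.2.2 to NCBI Build 38 (mm10) and deposited whole-number counts of reads in coding sequences per gene. The gene annotation and the strand setting were not given in the sources used here. Amplification makes reads non-independent molecules, so counting precision is lower than the totals imply. A combined table with the same counts was not used.

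Counts were tested with edgeR 4.0.16 (TMM, filterByExpr, quasi-likelihood F test) in R 4.3.3, with 6 group means over 36 libraries and 15497 genes, two-sided, with Benjamini-Hochberg adjustment over all of them. Calls needed an adjusted p under 0.05 and a fold over 1.5. SEs are the log2 fold change over the root of F. TMM factors were 0.908 to 1.03. Of 52636 identifiers, 233 had no symbol. The test was tried on simulated counts first. Alternatives were DESeq2 1.42.0, limma 3.58.1 with voom, other scalings and filters, each library left out, and the replicate number as a block.

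The replicate numbers were taken as shared mice from the submitters' description, which mouse is which not being stated. The deviations of same-numbered libraries from their group means correlated at 0.092 on average, against -0.018 for different numbers, and 34 of 90 pairs exceeded 0.1. Where mice differ, p-values without the block carry that spread.

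The members and gene lists were chosen with earlier results of these data known. Named were all 7 members, up to 5 called genes per list and comparison, and the 5 genes most like Cyp1a1. Fth1, Gclm, Txnrd1, Srxn1, G6pdx, Gsr, Il4i1, Hsp90ab1, Ptges3, Sis, Treh, Fabp2, Lct, Pdgfrb, Epcam, Vil1, Cldn7 and Cdx2 were named after their values were seen. In the list for the receptor's complex and in that of enterocyte markers, 1 gene each is not reported here. Coordinates are from GENCODE vM21 (GRCm38). Promoters are from RefSeq.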

Additional observations from a re-analysis of the deposited data

Results flagged for a closer look

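In groups of 6, the extreme library was checked against the others by Dixon's ratio at the 95% level. Of 42 groups of member values, 2 were past it, about the number that chance gives at 1 in 20. Ahr in Wnt5a + IgG replicate 1 was at 92.1 CPM, with the next library at 59.9 CPM (0.727 of the range). Without that library the log2 fold change of Ahr with Wnt5a was still called. Tiparp in Wnt5a + anti-Ptk7 replicate 1 was at 114 CPM, with the next at 76.3 CPM (0.705 of the range). Both libraries carry replicate number 1, which was also among the 2 highest for Cyp1a1 and Cyp1b1 in every group.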

How the results depend on the processing

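The calls of Ahr and Cyp1b1 with Wnt5a were made under every alternative run, with log2 fold changes of 0.85 to 1.15 and 2.66 to 3.59. The number of members called in SCM against complete media moved from 0 to 1 with DESeq2 and with the replicate block (1 in each of the 6 blocked fits without 1 replicate number), and ran from 0 to 2 with 1 library left out (Cyp1b1 without complete media + IgG replicate 1, Ahr and Cyp1b1 without complete media + IgG replicate 5). In SCM against QCM it moved from 0 to 1 with the block, and was 1 in each blocked fit without 1 number. With anti-Ptk7 in SCM it moved from 1 to 0 when the 2 groups were fitted alone, and ran from 0 to 1 with 1 library left out. The Cyp1a1 log2 fold change there ran from 1.21 to 1.69. The blocked fits without 1 number were added after the data were seen. The block changed no other call of a member. Among 34 tested values of members, 13 that were not called changed sign somewhere, in 50 of 949 values under alternatives. Ahrr had 0 to 75 counts in a library and SEs of 0.87 to 0.91, and Cyp1a1 and Cyp1b1 spread widely between the 6 replicate numbers.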
